A study of Mus musculus with 4 samples.

Results

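A list of 34 mouse genes for collagens, the enzymes that modify them and other proteins of the connective tissue matrix was followed across 4 RNA-seq libraries of bone marrow-derived macrophages. The genes were taken by name from the 24135 gene symbols of the deposited tables, and all 34 were found. They comprise 5 fibrillar collagen chains, 7 other collagen chains, 7 collagen-modifying enzymes or chaperones, 5 proteoglycans or fibre glycoproteins, and 10 matricellular proteins or secreted regulators. The tables give FPKM (fragments per kilobase of transcript, scaled to the mapped reads of the library), so that levels can be set side by side between genes. The FPKM of all transcripts of a gene was summed.

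Collagens are secreted proteins of 3 chains wound into a triple helix. Fibrillar collagens form the fibres of connective tissue, and type IV collagen forms the sheets of basement membranes. Prolyl hydroxylases and the chaperone HSP47 act on the chains inside the cell, and lysyl oxidases cross-link the secreted fibres. Fibroblasts and other mesenchymal cells are the usual main source of this matrix, while macrophages are known mostly for taking it up and degrading it and for secreting fibronectin and thrombospondin.

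The cells came from C57BL/6 mice that were Batf2-/- (KO) or Batf2+/+ (WT). Batf2 is a transcription factor of the AP-1 family that interferon induces in macrophages. Marrow from the leg bones was grown for 6 days with 10 ng/ml GM-CSF, and the cells that stuck to the dish were used without a further sort named in the labels. All 4 cultures received 10 ng/ml IFN-γ for 4 h and then 100 ng/ml LPS, a bacterial cell wall component, for 3 h or 0 h. This gave KO and WT cells with 3 h of LPS, and KO and WT cells with 0 h. Each group is 1 library, so that no difference has a replicate check and no test was made. The labels do not give the number of animals behind a culture or how the Batf2 allele was disrupted.

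Single-read transcripts gave depths of 20300000 to 30700000 reads per library. Batf2 itself had 10.1 FPKM in KO and 234.3 FPKM in WT cells at 3 h, and 0.259 FPKM in KO and 2.63 FPKM in WT cells at 0 h. Macrophage genes such as these were abundant in all 4 libraries: Lyz2 (lysozyme) lay between 14415 and 23092 FPKM, Cd68 between 284.6 and 452.8 FPKM, and Csf1r (the CSF-1 receptor) between 147.1 and 186.9 FPKM. Cx3cr1, another macrophage marker, was low, between 0.263 and 1.01 FPKM. Itgax, listed here as a dendritic cell marker, lay between 456.8 and 563.7 FPKM. A value of 0 in these tables need not mean an unexpressed gene: Eno1, an enzyme of glycolysis that every cell uses, was listed at 0 in all 4 libraries, and 142 symbols had at least 5 FPKM in a library and 0 in another. In bulk RNA, fewer cells of a type and less RNA per cell cannot be told apart.

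A total of 29 of the 34 genes reached 1 FPKM in a library, and 21 did so in all 4. By library, 27 genes reached 1 FPKM in KO and 24 in WT cells at 3 h, and 28 did in KO and 22 in WT cells at 0 h. The 4 genes that reached it in KO cells alone were Col3a1, P4ha2, Col6a1 and Loxl3. The nearest values to this level were 0.995 FPKM for Col6a1 in WT cells at 0 h, 0.972 FPKM for Col6a2 in KO cells at 0 h, 1.02 FPKM for Mgp in KO cells at 3 h and 1.04 FPKM for P4ha2 in KO cells at 3 h. Col6a2, Col6a3, Col14a1, Col18a1 and Lum stayed under 1 FPKM in all 4 libraries. The KO library at 0 h held the highest level of 28 of the 34 genes. The exceptions were Tnc, Fbn1 and P4ha1, highest in KO cells at 3 h, Fn1 and Mgp, highest in WT cells at 0 h, and Lum, highest in WT cells at 3 h.

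**Figure D1:**
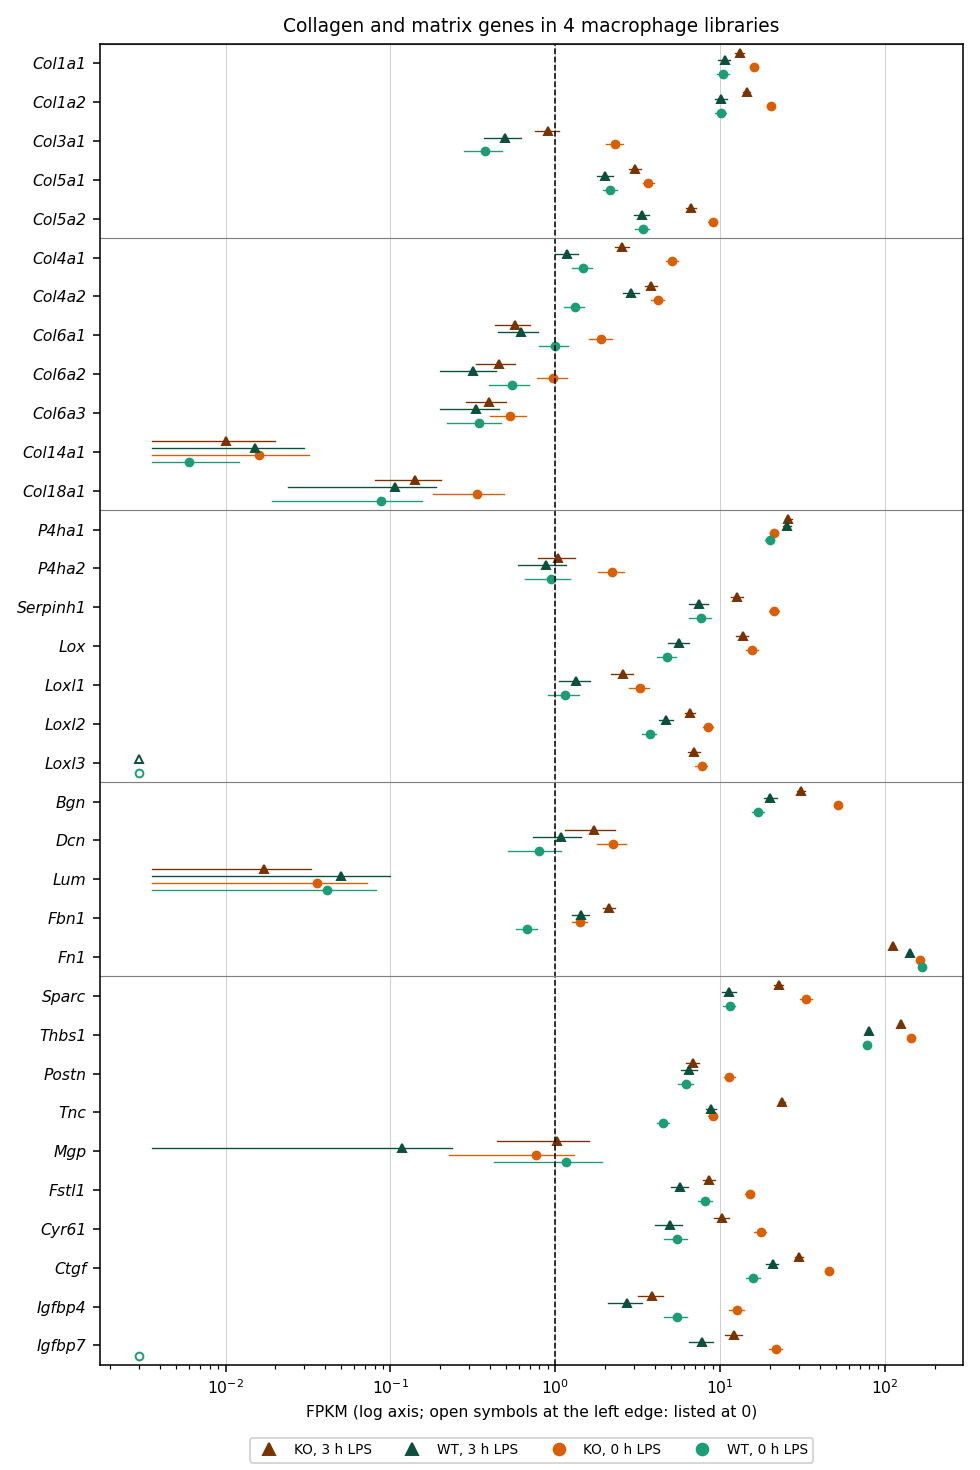
FPKM (log axis) of the 34 genes in each library, with the 3 h libraries above the 0 h libraries and KO above WT within each time; bars are the deposited 95% intervals shifted onto the FPKM, grey lines part the 5 role groups, and the dashed line marks 1 FPKM. The KO library at 0 h (orange circles) is the highest for 28 of the 34 genes, and Loxl3 in both WT libraries and Igfbp7 in WT cells at 0 h are listed at 0.

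In KO cells before LPS, most of these genes stood above their WT level. A gene was called higher or lower by size alone: a difference of at least 1 in log2(FPKM + 1), which is 2-fold for abundant genes and more for low ones, at least 1 FPKM in a compared library, a status of OK, and deposited 95% intervals that do not overlap. Those intervals cover the counting and the assignment of reads within a library and not the spread between cultures. At 0 h, 13 of the 34 genes were called higher in KO cells, where 1.33% of the 10846 symbols compared were, and 0 were called lower, where 0.387% were. The 34 genes, the further lists below and the size rule were chosen with earlier results of these data known. The shares of all symbols are therefore a background, here and below, and not a test of these genes. The sign of the difference was positive for 31 of the 34, counted with no floor on the level, where it was for 49.9% of the symbols compared. A higher level in KO cells with intervals apart was found for 28, where 9.87% of the 10846 symbols had one. These 28 include Col6a2 and Col18a1, which were under 1 FPKM and so not among the symbols compared. The genes lower in KO cells with intervals apart numbered 0, where 9.26% of the 10846 were. Over the 28 genes with a mean of at least 1 FPKM, the median difference was 0.99 in log2(FPKM + 1), against -0.00 over the 10486 symbols with that mean. Col3a1, Col6a1 and P4ha2 reach that mean because of the KO library at 0 h, and Loxl3 because of the KO libraries. The 28 genes are thus partly chosen on a high KO level. Over all 34 genes, without that filter, the median difference was 0.87. For the 26 of the 28 genes with no value of 0, the KO to WT ratio of FPKM had a median of 2.33, and 18 ratios were 2 or more. With a pseudocount of 5 in place of 1, the count called higher was 8, without Col3a1, Col4a1, Col4a2, Col5a2 and Igfbp4. Without Loxl3 and Igfbp7, whose WT values were listed at 0, it was 11.

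At 3 h of LPS the same comparison gave smaller differences. Only 3 of the 34 genes were called higher in KO cells, Lox, Loxl3 and Tnc, where 0.734% of 9808 symbols were, and 0 were called lower, where 0.724% were. The sign was positive for 30 of the 34, counted with no floor on the level, where it was for 34.4% of the symbols compared. The level was higher in KO cells with intervals apart for 22 genes, where 8.69% of the 9808 symbols were, and lower for 1 gene, Fn1, where 16.8% were. The 22 include Col3a1, which was under 1 FPKM and so not among the symbols compared. The median difference over the 28 genes was 0.50, against -0.07 over all 10486 symbols, and over all 34 genes it was 0.42. The KO to WT ratio had a median of 1.52 over 27 genes with no value of 0, and 4 ratios were 2 or more. The count called higher was 6 with a pseudocount of 0.1 and also 6 after rescaling by the median ratio, and 2 without Loxl3.

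**Figure D2:**
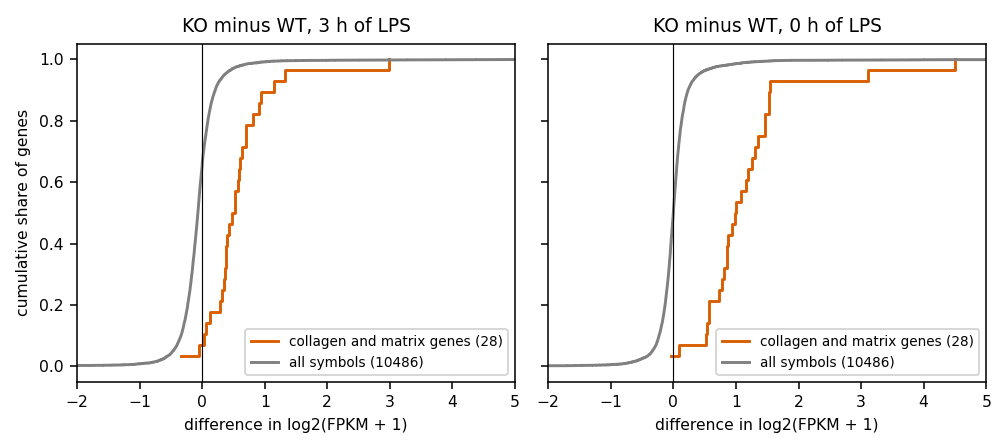
Cumulative share of genes by the KO minus WT difference in log2(FPKM + 1), at 3 h (left) and 0 h (right) of LPS, for the 28 collagen and matrix genes (orange) and the 10486 symbols (grey) with a mean of at least 1 FPKM. The orange curve lies right of the grey one, with medians of 0.50 against -0.07 at 3 h and 0.99 against -0.00 at 0 h.

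The pairs of libraries behind the genotype comparisons at 3 h and at 0 h share none. The labels do not say whether the cultures of a genotype at 3 h and 0 h came from the same animals. The comparisons at these times can therefore not be taken as independent. Of the 28 genes, 26 (92.9%) were higher in KO cells at both times, against 20.3% of the 10486 symbols. The 28 include Col3a1, Col6a1, P4ha2 and Loxl3, which passed the filter on the mean because of KO libraries. Across these 28 genes, which are not independent of each other, the differences at 3 h and 0 h had a Pearson correlation of 0.57 and a Spearman correlation of 0.71, against 0.15 and 0.26 across all the symbols. The signed KO minus WT difference at 0 h exceeded that at 3 h for 27 of the 28 genes, all but Tnc, and for 63.7% of the symbols.

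Among the fibrillar collagens, both chains of type I collagen, the main protein of bone and skin fibres, were measured well above 1 FPKM. Col1a1 (chromosome 11) had 13.1 FPKM in KO and 10.6 FPKM in WT cells at 3 h, and 16.0 FPKM in KO and 10.4 FPKM in WT cells at 0 h. Col1a2 (chromosome 6) had 14.4 FPKM in KO and 10.1 FPKM in WT cells at 3 h, and 20.1 FPKM in KO and 10.0 FPKM in WT cells at 0 h. The KO values of both chains lay above the WT values at both times with intervals apart. On the FPKM as deposited, the WT libraries were close to each other. After rescaling by the median ratio, WT cells were higher at 3 h than at 0 h by log differences of 0.52 for Col1a1 and 0.49 for Col1a2. The KO to WT ratio of Col1a2 was 1.43 (1.30 to 1.58) at 3 h and 2.00 (1.83 to 2.19) at 0 h, and that of Col1a1 was 1.24 (1.12 to 1.37) and 1.54 (1.40 to 1.69), with intervals derived from the deposited ones. Neither chain was called, since both differences were under 1 on the log scale.

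Col3a1, the chain of type III collagen that accompanies type I in elastic tissues, had 0.900 FPKM in KO and 0.496 FPKM in WT cells at 3 h, and 2.30 FPKM in KO and 0.375 FPKM in WT cells at 0 h. Its KO to WT ratio at 0 h, 6.13 (4.61 to 8.15) rested on an estimated 359 reads in KO and 52 reads in WT cells, and the gene reached a mean of 1 FPKM through the KO library at 0 h alone. At 3 h the ratio was 1.81 (1.34 to 2.46). Type V collagen regulates the width of type I fibres. Its chain Col5a2 had 6.63 FPKM in KO and 3.33 FPKM in WT cells at 3 h, and 8.99 FPKM in KO and 3.38 FPKM in WT cells at 0 h. Its partner Col5a1 had 3.05 FPKM in KO and 2.00 FPKM in WT cells at 3 h, and 3.66 FPKM in KO and 2.16 FPKM in WT cells at 0 h. The intervals of both type V chains were apart at both times, and the WT values as deposited hardly moved. After rescaling by the median ratio, WT cells were higher at 3 h than at 0 h by log differences of 0.29 for Col5a1 and 0.40 for Col5a2. Col5a2 was called at 0 h with a ratio of 2.66 (2.37 to 2.99) and missed the call at 3 h with 1.99 (1.75 to 2.26). Col3a1 and Col5a2 are neighbours on chromosome 1, with 24625 bases between them. Summed over the 5 fibrillar chains, the level was 38.1 FPKM in KO and 26.5 FPKM in WT cells at 3 h, and 51.1 FPKM in KO and 26.3 FPKM in WT cells at 0 h.

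Type IV collagen, the network of basement membranes, is made from Col4a1 and Col4a2, which start head to head on chromosome 8. Col4a1 had 2.54 FPKM in KO and 1.18 FPKM in WT cells at 3 h, and 5.09 FPKM in KO and 1.46 FPKM in WT cells at 0 h. Col4a2 had 3.82 FPKM in KO and 2.89 FPKM in WT cells at 3 h, and 4.16 FPKM in KO and 1.31 FPKM in WT cells at 0 h. Both were called at 0 h, with KO to WT ratios of 3.48 (2.97 to 4.08) for Col4a1 and 3.17 (2.68 to 3.76) for Col4a2. At 3 h the ratios of the pair were 2.15 (1.78 to 2.61) and 1.32 (1.15 to 1.53), and the WT value of Col4a2 was above that at 0 h while that of Col4a1 was not.

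The start regions of 4 collagen genes are shown because these genes include both chains of the head-to-head pair, which share bases, and a fibrillar chain called at 0 h. Each is the RefSeq window of 250 bases before to 50 bases after the start, build GRCm38.p6, 5′ to 3′ on the strand of the gene: Col1a2 at chr6:4505368-4505667 (plus strand), Col3a1 at chr1:45311288-45311587 (plus strand), Col4a1 at chr8:11312777-11313076 (minus strand) and Col4a2 at chr8:11312555-11312854 (plus strand). Capitals mark matches, on either strand, to the CCAAT box, to TATAAA as a form of the TATA box, to the GC box GGGCGG, to GGAATG as bound by TEAD factors and to TGANTCA as bound by AP-1 factors. On the other strand the first of these reads ATTGG, the GC box reads CCGCCC and the TEAD motif reads CATTCC.
Col1a2: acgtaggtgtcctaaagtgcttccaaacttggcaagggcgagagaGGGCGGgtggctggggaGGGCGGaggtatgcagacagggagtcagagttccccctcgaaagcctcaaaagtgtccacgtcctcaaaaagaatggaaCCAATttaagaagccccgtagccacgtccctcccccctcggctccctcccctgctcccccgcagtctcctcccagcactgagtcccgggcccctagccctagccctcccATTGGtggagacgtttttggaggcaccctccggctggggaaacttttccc
Col3a1: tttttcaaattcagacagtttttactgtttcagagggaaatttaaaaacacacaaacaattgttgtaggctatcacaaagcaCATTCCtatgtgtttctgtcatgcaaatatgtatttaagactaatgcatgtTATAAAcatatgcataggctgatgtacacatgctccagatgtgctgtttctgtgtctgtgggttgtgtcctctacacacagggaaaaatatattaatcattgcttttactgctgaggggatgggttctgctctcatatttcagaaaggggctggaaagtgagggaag
Col4a1: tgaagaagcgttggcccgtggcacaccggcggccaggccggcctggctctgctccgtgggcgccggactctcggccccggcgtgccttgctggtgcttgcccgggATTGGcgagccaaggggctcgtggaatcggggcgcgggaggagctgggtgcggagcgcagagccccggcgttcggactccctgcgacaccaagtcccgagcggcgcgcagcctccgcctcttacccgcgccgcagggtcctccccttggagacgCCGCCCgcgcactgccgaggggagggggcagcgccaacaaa
Col4a2: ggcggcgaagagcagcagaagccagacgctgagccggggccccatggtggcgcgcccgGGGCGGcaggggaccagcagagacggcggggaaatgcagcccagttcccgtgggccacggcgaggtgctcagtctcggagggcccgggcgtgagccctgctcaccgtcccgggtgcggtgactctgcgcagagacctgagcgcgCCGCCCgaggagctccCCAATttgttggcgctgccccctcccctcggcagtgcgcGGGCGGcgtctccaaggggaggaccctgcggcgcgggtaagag
The windows of Col4a1 and Col4a2 share the 78 bases of chr8:11312777-11312854, and the GGGCGG match near both starts is the same run of bases read from either side. The annotated start of Col1a2 in this table lies 79 bases from the deposited one.

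Windows were found for 21 of the 34 genes. CCAAT was in 3 of the 21 (14.3%), against 37.4% of 32851 windows of all genes. TATAAA was in 6 (28.6%, against 13.6%), GGGCGG in 14 (66.7%, against 35.7%), GGAATG in 4 (19%, against 14.7%) and TGANTCA in 1, that of Col6a1 (4.76%, against 7.81%). These are letter matches, and a window without one says nothing of the factor. None of the matches marked in the printed windows overlaps another.

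The other collagen chains were low. Col6a1, a chain of the beaded filaments of type VI collagen, had 0.565 FPKM in KO and 0.618 FPKM in WT cells at 3 h, and 1.90 FPKM in KO and 0.995 FPKM in WT cells at 0 h. The genotypes overlapped at 3 h, and at 0 h the intervals were apart with a ratio of 1.91 (1.47 to 2.48). Its neighbour Col6a2, 85162 bases away on chromosome 10, and Col6a3 lay between 0.317 and 0.972 FPKM. For Col6a2 the KO value was above the WT value with intervals apart at 0 h and overlapping at 3 h, and for Col6a3 the intervals overlapped at both times. Col18a1, the basement membrane collagen that releases endostatin, had 0.140 FPKM in KO and 0.106 FPKM in WT cells at 3 h, and 0.333 FPKM in KO and 0.087 FPKM in WT cells at 0 h, with intervals apart at 0 h alone. Col14a1, which coats fibres, rested on an estimated 1 to 3 reads per library and carries no comparison.

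The collagen-modifying genes parted into a prolyl hydroxylase that hardly differed between genotypes and a set of cross-linking enzymes that did. P4ha1, the main catalytic subunit of prolyl hydroxylase, had 25.9 FPKM in KO and 25.3 FPKM in WT cells at 3 h, and 21.2 FPKM in KO and 19.9 FPKM in WT cells at 0 h. Its intervals overlapped between genotypes at both times, with ratios of 1.02 (0.943 to 1.10) at 3 h and 1.06 (0.98 to 1.15) at 0 h. P4ha2, the other such subunit, had 1.04 FPKM in KO and 0.877 FPKM in WT cells at 3 h, and 2.20 FPKM in KO and 0.942 FPKM in WT cells at 0 h. It was higher in KO cells with intervals apart at 0 h, by a ratio of 2.34 (1.65 to 3.31), and overlapped at 3 h. Serpinh1, which encodes HSP47, had 12.6 FPKM in KO and 7.41 FPKM in WT cells at 3 h, and 21.1 FPKM in KO and 7.62 FPKM in WT cells at 0 h. Its KO values exceeded the WT values at both times, and the gene was called at 0 h with a ratio of 2.77 (2.35 to 3.27).

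Of the 4 lysyl oxidase genes among the 34, Lox, Loxl1 and Loxl2 were higher in KO cells at both times with intervals apart, and Loxl3 was listed at 0 in WT cells. Lox, the first described enzyme of the family, had 13.6 FPKM in KO and 5.64 FPKM in WT cells at 3 h, and 15.6 FPKM in KO and 4.77 FPKM in WT cells at 0 h. Its intervals did not overlap, and it was called at both times, with ratios of 2.42 (2.05 to 2.86) at 3 h and 3.26 (2.78 to 3.83) at 0 h. Loxl1, known for its part in elastic fibres, had 2.57 FPKM in KO and 1.34 FPKM in WT cells at 3 h, and 3.24 FPKM in KO and 1.15 FPKM in WT cells at 0 h. Loxl2 had 6.53 FPKM in KO and 4.70 FPKM in WT cells at 3 h, and 8.43 FPKM in KO and 3.72 FPKM in WT cells at 0 h. These intervals were also apart at both times. With a log difference at 0 h of 0.98 for Loxl1, and one for Loxl2 that rounds to 1, both were just short of a call. Loxl3 had 6.96 FPKM in KO cells at 3 h and 7.68 FPKM in KO cells at 0 h, and was listed at 0 in WT cells at both times, with deposited upper limits of 0.023 and 0.019 FPKM. It was called at both times, with no fold to give, and the 0 may be a failed estimate rather than a lower level. Loxl3 overlaps Htra2 by 1298 bases, whether reads were counted by strand is not given in the sources used here, and Htra2 was listed at 28.1 FPKM in KO and 35.0 FPKM in WT cells at 3 h, and at 19.9 FPKM in KO and 19.4 FPKM in WT cells at 0 h.

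Among proteoglycans and fibre glycoproteins, Bgn was the 1 gene called, at 0 h. Bgn (biglycan, a small proteoglycan that binds collagen; chromosome X) had 30.8 FPKM in KO and 20.1 FPKM in WT cells at 3 h, and 51.3 FPKM in KO and 17.0 FPKM in WT cells at 0 h. The KO values were the highest pair, and the gene was called at 0 h with a ratio of 3.02 (2.74 to 3.33), against 1.53 (1.38 to 1.70) at 3 h. Dcn (decorin, a relative of biglycan) had 1.71 FPKM in KO and 1.08 FPKM in WT cells at 3 h, and 2.24 FPKM in KO and 0.795 FPKM in WT cells at 0 h, with overlapping intervals at 3 h and intervals apart at 0 h. Lum (lumican), 47338 bases from Dcn on chromosome 10, rested on an estimated 1 or 2 reads per library. Fbn1 (fibrillin, the core of elastic microfibrils) had 2.12 FPKM in KO and 1.42 FPKM in WT cells at 3 h, and 1.41 FPKM in KO and 0.675 FPKM in WT cells at 0 h. Its intervals were apart at both times, with ratios of 1.49 (1.29 to 1.73) at 3 h and 2.08 (1.73 to 2.50) at 0 h.

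Fn1 (fibronectin, which links cells to collagen) was the most abundant of the 34 genes by mean FPKM and went the other way. It had 111.6 FPKM in KO and 141.4 FPKM in WT cells at 3 h, and 161.3 FPKM in KO and 166.3 FPKM in WT cells at 0 h. The KO library was below the WT library at 3 h, by a ratio of 0.789 (0.756 to 0.823), and the intervals overlapped at 0 h. The summed level of the 34 genes was 504 FPKM in KO and 389 FPKM in WT cells at 3 h, and 669.7 FPKM in KO and 389.6 FPKM in WT cells at 0 h. Without Fn1, the sum was 392.4 FPKM in KO and 247.6 FPKM in WT cells at 3 h, and 508.4 FPKM in KO and 223.3 FPKM in WT cells at 0 h.

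Of the 10 matricellular proteins and secreted regulators, 5 were called higher in KO cells at 0 h, where 1.33% of the symbols compared were. At 3 h 1 was, where 0.734% were. Thbs1 (thrombospondin, a macrophage and platelet product that can activate TGF-beta) was the most abundant, with 123.8 FPKM in KO and 79.2 FPKM in WT cells at 3 h, and 143.1 FPKM in KO and 77.6 FPKM in WT cells at 0 h. The KO values were higher at both times, with ratios of 1.56 (1.51 to 1.61) at 3 h and 1.84 (1.79 to 1.90) at 0 h, and the gene was not called. Sparc (osteonectin, a collagen-binding glycoprotein) had 22.5 FPKM in KO and 11.3 FPKM in WT cells at 3 h, and 33.1 FPKM in KO and 11.4 FPKM in WT cells at 0 h. On the FPKM as deposited, the WT libraries were alike and the KO libraries higher, with ratios of 1.99 (1.78 to 2.23) at 3 h and 2.92 (2.60 to 3.28) at 0 h. After rescaling by the median ratio, Sparc in WT cells was higher at 3 h than at 0 h by a log difference of 0.49. The reads of Sparc were assigned to different transcripts in different libraries: the entry that held all 22.5 FPKM in KO cells at 3 h was at 0 in both WT libraries. The sum over transcripts is given for this reason.

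Cyr61 and Ctgf, also named Ccn1 and Ccn2, encode secreted proteins of the CCN family and are known targets of the YAP and TEAD factors. Cyr61 had 10.2 FPKM in KO and 4.96 FPKM in WT cells at 3 h, and 17.5 FPKM in KO and 5.44 FPKM in WT cells at 0 h. Ctgf had 30.1 FPKM in KO and 20.7 FPKM in WT cells at 3 h, and 45.7 FPKM in KO and 15.9 FPKM in WT cells at 0 h. Both were called at 0 h, with ratios of 3.22 (2.69 to 3.86) for Cyr61 and 2.88 (2.57 to 3.23) for Ctgf, and neither was at 3 h. Their log differences at 3 h were 0.91 for Cyr61 and 0.52 for Ctgf.

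Tnc (tenascin-C, a glycoprotein of inflamed and healing tissue) was the 1 gene among the 28 whose signed KO minus WT difference was larger at 3 h. It had 23.6 FPKM in KO and 8.79 FPKM in WT cells at 3 h, and 8.99 FPKM in KO and 4.49 FPKM in WT cells at 0 h. The ratio was 2.69 (2.48 to 2.92) at 3 h, where the gene was called, and 2.00 (1.81 to 2.21) at 0 h, where it was not. The start regions of Tnc and Cyr61 are shown for the gene that gained with LPS and for a YAP and TEAD target whose window holds a GGAATG match. They are the RefSeq windows of build GRCm38.p6 at chr4:64046966-64047265 (Tnc, minus strand) and chr3:145649936-145650235 (Cyr61, minus strand), with capitals as in the collagen windows.
Tnc: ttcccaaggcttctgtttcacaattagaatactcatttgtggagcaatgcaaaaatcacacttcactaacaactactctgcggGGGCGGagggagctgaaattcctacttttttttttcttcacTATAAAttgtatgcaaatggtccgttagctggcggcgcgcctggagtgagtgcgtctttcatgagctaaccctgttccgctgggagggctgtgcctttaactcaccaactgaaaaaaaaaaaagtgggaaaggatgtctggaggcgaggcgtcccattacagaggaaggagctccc
Cyr61: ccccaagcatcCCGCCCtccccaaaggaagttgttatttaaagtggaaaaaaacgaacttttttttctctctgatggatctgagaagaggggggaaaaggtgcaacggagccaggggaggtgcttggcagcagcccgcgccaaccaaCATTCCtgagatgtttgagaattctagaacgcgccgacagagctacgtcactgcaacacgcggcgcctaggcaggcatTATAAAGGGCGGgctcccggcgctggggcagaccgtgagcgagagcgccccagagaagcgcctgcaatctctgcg
Counted from 1 at the start site, with negative positions before it and no position 0, the TATAAA match begins at -126 in Tnc and at -25 in Cyr61, where a GGGCGG match follows at -19. The GGAATG match of Cyr61 reads on the other strand and begins at -103.

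The remaining secreted genes are a pair of IGF-binding proteins and 3 others. Igfbp4 had 3.84 FPKM in KO and 2.70 FPKM in WT cells at 3 h, and 12.6 FPKM in KO and 5.43 FPKM in WT cells at 0 h, where it was called with a ratio of 2.32 (1.92 to 2.81). Igfbp7 had 12.1 FPKM in KO and 7.77 FPKM in WT cells at 3 h, and 21.7 FPKM in KO cells at 0 h, where WT was listed at 0 with a deposited upper limit of 0.16 FPKM. The call of Igfbp7 at 0 h rests on that 0, and at 3 h its ratio was 1.55 (1.27 to 1.90). Igfbp7 overlaps Polr2b by 89 bases. Postn (periostin, a matrix protein of bone and scar) had 6.82 FPKM in KO and 6.49 FPKM in WT cells at 3 h, and 11.3 FPKM in KO and 6.18 FPKM in WT cells at 0 h. Fstl1, a secreted glycoprotein related to follistatin, had 8.58 FPKM in KO and 5.67 FPKM in WT cells at 3 h, and 15.0 FPKM in KO and 8.11 FPKM in WT cells at 0 h. Postn differed between genotypes with intervals apart at 0 h alone, by a ratio of 1.83 (1.61 to 2.08), and Fstl1 did at both times. Mgp, a calcification inhibitor, rested on few reads: an estimated 19 in KO and 1 in WT cells at 3 h, and 13 in KO and 18 in WT cells at 0 h. Its ratio at 3 h was 8.62 with an interval of 2.73 to 27.2, and at 0 h the intervals overlapped.

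**Figure D3:**
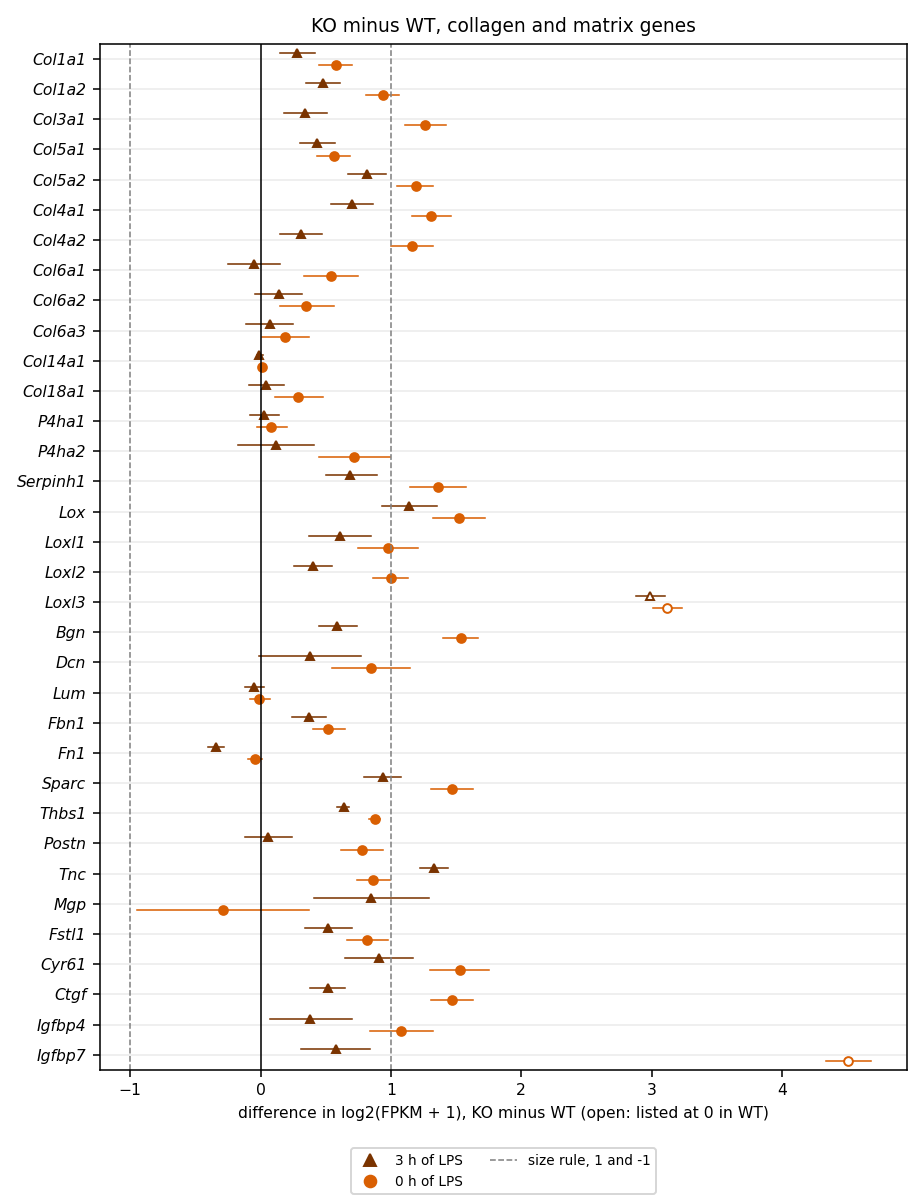
KO minus WT difference in log2(FPKM + 1) of each of the 34 genes at 3 h (triangles) and 0 h (circles) of LPS, with intervals from the deposited 95% limits; dashed lines mark 1 and -1, and open symbols mark a WT value listed at 0. At 0 h, 13 genes lie past the right dashed line by the size rule, at 3 h Lox, Loxl3 and Tnc do, and Fn1 lies left of 0 at 3 h.

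Between 3 h and 0 h of LPS within a genotype, few of these genes passed the size rule. In WT cells, 1 gene was called higher at 3 h than at 0 h, Igfbp7, whose 0 h value was listed at 0, where 7.56% of 10845 symbols were, and 0 were called lower, where 23.2% were. In KO cells, Tnc was called higher, where 7.85% of 10963 symbols were, and Igfbp4 lower, where 28.0% were, a call that ended after the rescaling described next. Over the symbols with a mean of at least 1 FPKM, the median difference between 3 h and 0 h was -0.63 in KO and -0.53 in WT cells, so that a level in FPKM that did not move stands above the median of all genes. Over the 28 genes it was -0.49 in KO and 0.03 in WT cells, and over all 34 genes it was -0.36 and 0.01. After the libraries were rescaled by their median ratio, the medians over the 28 genes were 0.13 in KO and 0.48 in WT cells, against -0.07 and -0.06 over all the symbols.

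On the FPKM as deposited, 8 genes were higher at 3 h in WT cells with intervals apart, where 15.8% of the symbols compared were, 5 were lower, where 64.5% were, and 21 overlapped. In KO cells 3 genes, P4ha1, Fbn1 and Tnc, were higher with intervals apart, where 15.5% were, 21 were lower, where 70.0% were, and 10 overlapped. The lower genes include Col6a1 in WT and Col6a2 in KO cells, which were under 1 FPKM there and so not among the symbols compared. Tnc gained most of the genes with no value of 0 in KO cells: its ratio of 3 h to 0 h was 2.63 (2.45 to 2.83) in KO and 1.96 (1.76 to 2.18) in WT cells. Fbn1 had ratios of 1.51 (1.32 to 1.72) in KO and 2.11 (1.74 to 2.56) in WT cells, and P4ha1 had 1.22 (1.13 to 1.32) in KO and 1.27 (1.17 to 1.39) in WT cells. These 3 genes stood higher at 3 h in both genotypes. Igfbp4 was lower at 3 h in both, with ratios of 0.304 (0.248 to 0.374) in KO and 0.498 (0.375 to 0.661) in WT cells. Col4a2 differed between genotypes in this respect, with ratios of 0.917 (0.809 to 1.04) in KO and 2.20 (1.83 to 2.64) in WT cells, while its partner Col4a1 had 0.499 (0.439 to 0.566) in KO and 0.805 (0.651 to 0.995) in WT cells. Rescaling turned the direction of Col4a2 in KO cells, to a log difference of 0.42, and that of Col4a1 in WT cells, to 0.13.

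**Figure D4:**
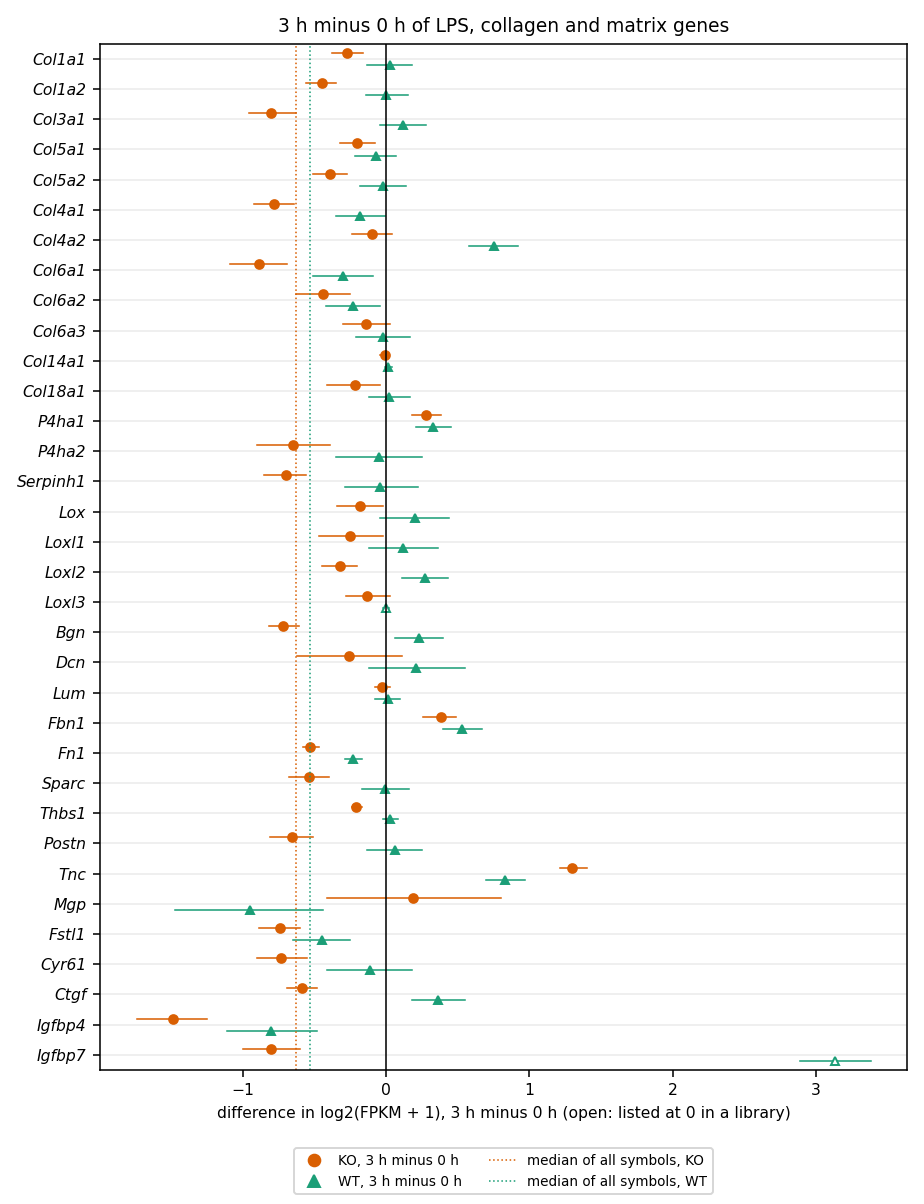
Difference in log2(FPKM + 1) between 3 h and 0 h of LPS for the 34 genes, in KO (circles) and WT (triangles) cells, with intervals from the deposited 95% limits; dotted lines mark the medians over all symbols, -0.63 in KO and -0.53 in WT cells. Most KO points lie left of their WT points, and Tnc is the farthest right in KO cells.

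The difference between the LPS responses, KO minus WT, was below 0 for 32 of the 34 genes, all but Tnc (0.47) and Mgp (1.15), and for 7059 of the 11128 symbols compared. The 32 were counted with no floor on the level, unlike the symbols compared. By arithmetic the difference between the responses equals the KO minus WT difference at 3 h minus that at 0 h. It thus restates the smaller genotype differences at 3 h and is not a separate result. After rescaling, P4ha1 (0.04) and Loxl3 (0.44, with both WT values listed at 0) also stood above 0, and Col5a1 was at 0. Its median was -0.50 over the 28 genes and -0.38 over all 34, against -0.08 over all the symbols with a mean of at least 1 FPKM. The propagated interval of this difference excluded 0 for 25 of all 34 genes and for 23 of the 28, against 3192 of the 10486 symbols. The 28 include Col3a1, Col6a1 and P4ha2, which passed the filter on the mean because of the KO library at 0 h. A high value in that library also lowers this difference. By the size rule 1 gene was called higher, Mgp, where 0.962% of 11128 symbols were, and 1 lower, Igfbp7, where 1.51% were. Mgp rests on few reads and Igfbp7 on a value of 0.

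Markers of other cell types moved with the genotype at 0 h. Of 15 markers of fibroblasts and mesenchymal cells, 13 had a positive KO minus WT difference at 0 h, where 49.9% of the symbols compared had. At 3 h 10 had one, where 34.4% had. The symbols compared had at least 1 FPKM in a compared library, while the markers were counted with no floor. Of the 15, 9 reached 1 FPKM in a library. At 0 h 4 were called higher in KO cells, where 1.33% were, and at 3 h 0 were called, where 0.734% were higher. Acta2 (smooth muscle actin) had 44.3 FPKM in KO and 31.6 FPKM in WT cells at 3 h, and 68.0 FPKM in KO and 31.9 FPKM in WT cells at 0 h. Tagln (transgelin) had 30.6 FPKM in KO and 16.3 FPKM in WT cells at 3 h, and 45.3 FPKM in KO and 14.3 FPKM in WT cells at 0 h. Both were highest in KO cells at 0 h, as were most of the 34 genes. Cdh11 and Cxcl12 were the other markers called at 0 h. Cav1 had the highest mean FPKM of the 15 and went the other way, with 252.7 FPKM in KO and 314.1 FPKM in WT cells at 3 h, and 36.9 FPKM in KO and 50.3 FPKM in WT cells at 0 h. The 15 summed to 341.2 FPKM in KO and 371.9 FPKM in WT cells at 3 h, and 173.8 FPKM in KO and 105.5 FPKM in WT cells at 0 h. Without Cav1, singled out after its values were seen, the sum was 88.6 FPKM in KO and 57.7 FPKM in WT cells at 3 h, and 136.9 FPKM in KO and 55.3 FPKM in WT cells at 0 h. The defining receptor Pdgfra had 0.194 FPKM in KO and 0.154 FPKM in WT cells at 3 h, and 0.698 FPKM in KO and 0.253 FPKM in WT cells at 0 h. Dpt was listed at 0 in all 4 libraries, and the part of such cells in the matrix gene differences was not tested.

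**Figure D5:**
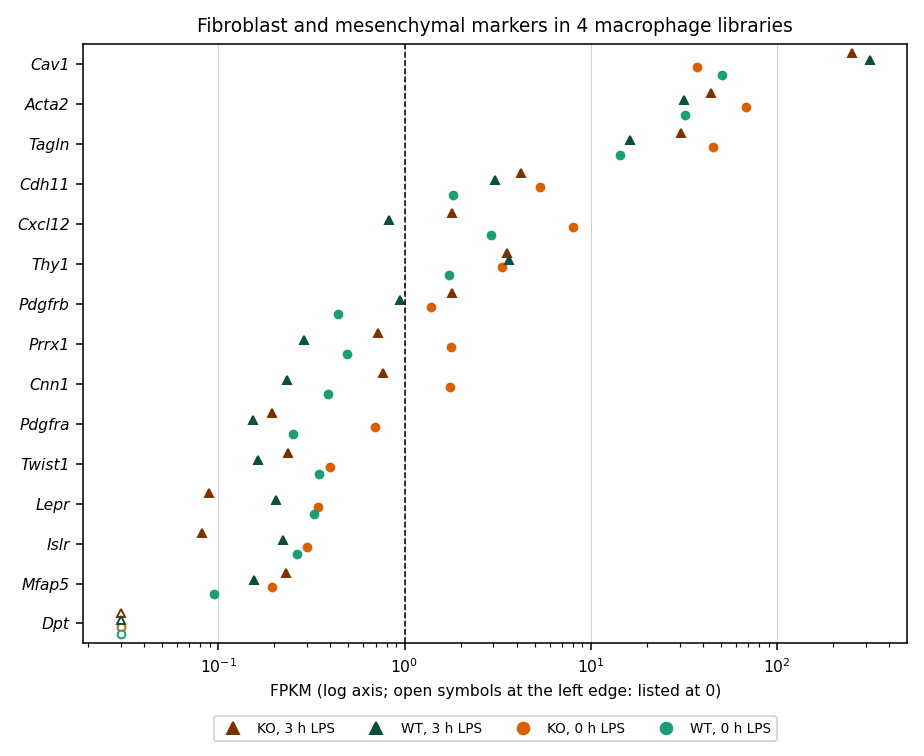
FPKM (log axis) of 15 fibroblast and mesenchymal markers in each library, with the 3 h libraries above the 0 h libraries and KO above WT within each time; the dashed line marks 1 FPKM and open symbols mark values listed at 0. Acta2, Tagln, Cdh11 and Cxcl12 are highest in KO cells at 0 h, and Cav1 is highest in WT cells at 3 h.

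Of the other marker lists, all but that of osteoblasts held genes called between genotypes. Of the symbols compared, 1.33% were called higher and 0.387% lower in KO cells at 0 h, and 0.734% and 0.724% at 3 h. A positive difference was found for 49.9% of them at 0 h and 34.4% at 3 h. Positive differences of markers were counted with no floor on the level, unlike those of the symbols compared. The 9 neutrophil and precursor markers measured summed to 5484 FPKM in KO and 5769 FPKM in WT cells at 3 h, and 9079 FPKM in KO and 3637 FPKM in WT cells at 0 h. At 0 h all 9 had a positive difference and 5 (S100a8, S100a9, Ngp, Lcn2 and Ltf) were called higher in KO cells, and at 3 h 3 were positive and 0 were called. The 7 megakaryocyte and platelet markers summed to 306.5 FPKM in KO and 122.9 FPKM in WT cells at 3 h, and 283.2 FPKM in KO and 134.2 FPKM in WT cells at 0 h. Most of these sums was Pf4, a platelet chemokine called higher in KO cells at both times, with 281.6 FPKM in KO and 108.4 FPKM in WT cells at 3 h. The KO minus WT difference was positive for 4 of the 7 at 3 h and 5 at 0 h, Gp1ba and Gp9 were lower in KO cells at 3 h by log differences of -0.32 and -0.29, and Gp1bb was listed at 0 throughout. Of 8 endothelial markers 1 was called at 0 h, Emcn, and of 6 osteoblast markers 0 were. The 8 endothelial markers summed to 9.43 FPKM in KO and 10.1 FPKM in WT cells at 3 h, and 18.8 FPKM in KO and 17.9 FPKM in WT cells at 0 h. Vwf was the largest part of these sums, with 9.62 FPKM in KO and 13.8 FPKM in WT cells at 0 h. The KO minus WT difference was positive for 6 of the 8 at 0 h and for 2 at 3 h. The 6 osteoblast markers summed to 2.13 FPKM in KO and 2.07 FPKM in WT cells at 3 h, and 5.50 FPKM in KO and 4.58 FPKM in WT cells at 0 h. Most of these sums was Runx2, with 4.37 FPKM in KO and 4.33 FPKM in WT cells at 0 h, the only one of the 6 to reach 1 FPKM. The KO minus WT difference was positive for 5 of the 6 at 0 h and for 4 at 3 h. The 8 mast cell markers summed to 20.0 FPKM in KO and 14.1 FPKM in WT cells at 3 h, and 6.31 FPKM in KO and 3.41 FPKM in WT cells at 0 h, with Hdc called higher in KO cells at 0 h and Cma1 and Mcpt4 listed at 0 throughout. Hdc made up most of the sum at 3 h, with 16.9 FPKM in KO and 10.8 FPKM in WT cells, and Cpa3 and Ms4a2 had log differences of -0.44 and -0.14 at 3 h. Of 9 macrophage markers 0 were called at 0 h and 1, Cd14, was higher at 3 h, and of 8 dendritic cell markers 1 was called lower in KO cells at each time, Clec9a at 3 h and Cd209a at 0 h. The part of these cell types in the matrix gene differences was not tested.

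Related genes that are not among the 34 were read against the same size rule. Of the symbols compared, 1.33% were called higher in KO cells at 0 h and 0.734% at 3 h. Of 32 further collagen chains, 6 reached 1 FPKM in a library, 1 was called higher in KO cells at 0 h and 0 were called at 3 h. The highest by mean FPKM were Col12a1, with 1.97 FPKM in KO and 1.08 FPKM in WT cells at 3 h, and 2.62 FPKM in KO and 1.15 FPKM in WT cells at 0 h, and Col8a1, the one called, with 1.79 FPKM in KO and 0.504 FPKM in WT cells at 3 h, and 2.90 FPKM in KO and 0.679 FPKM in WT cells at 0 h. Of 24 other genes for collagen synthesis and processing, 1, Fkbp10, was called at 0 h and 0 at 3 h. The abundant general ones were close between genotypes: P4hb, which also folds other proteins, had 156.4 FPKM in KO and 165.4 FPKM in WT cells at 3 h, and 261.2 FPKM in KO and 256.6 FPKM in WT cells at 0 h. Of 40 other matrix glycoproteins and proteoglycans, 3 were called at 0 h (Fbln2, Thbs2 and Lamb1) and 0 at 3 h. Spp1 (osteopontin), the highest of the 40 by mean, had 2304 FPKM in KO and 2012 FPKM in WT cells at 3 h, and 3309 FPKM in KO and 2960 FPKM in WT cells at 0 h. The median differences at 0 h over members with a mean of at least 1 FPKM were 0.75 for the collagens, 0.14 for the synthesis genes and 0.38 for the other matrix genes. Fkbp10, Fbln2, Thbs2 and Lamb1 are named after their values were seen.

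The 2 lists of regulators of matrix genes differed from each other. Of the symbols compared, 1.33% were called higher in KO cells at 0 h and 0.734% at 3 h, and 49.9% had a positive difference at 0 h. Positive differences in the lists were counted with no floor on the level. Of 19 genes of the TGF-beta pathway, 2 were called higher in KO cells at 0 h and 0 at 3 h. The difference at 0 h was positive for 12 of the 19, with a median of 0.01 over the 14 with a mean of at least 1 FPKM. Tgfb1, a ligand of the pathway, had 150.9 FPKM in KO and 168.5 FPKM in WT cells at 3 h, and 231.8 FPKM in KO and 260.7 FPKM in WT cells at 0 h. The ligand was a little lower in KO cells at both times. Ltbp2, which encodes a matrix protein related to fibrillin, was among the genes called at 0 h and is named after its values were seen. Of 12 partners and targets of YAP and TEAD, the 2 called at 0 h were Cyr61 and Ctgf themselves. The difference at 0 h was positive for 11 of the 12, all but Axl, and 7 of the 12 reached 1 FPKM in a library. Over the 5 with a mean of at least 1 FPKM, which include Cyr61 and Ctgf, the median difference at 0 h was 0.96. The differences of the rest of the 5 were 0.96 for Amotl2, 0.23 for Lats2 and -0.65 for Axl. The median thus leans on genes under study and is no separate result. Amotl2, another known target that was picked after its values were seen, had 2.23 FPKM in KO and 1.36 FPKM in WT cells at 3 h, and 2.66 FPKM in KO and 0.884 FPKM in WT cells at 0 h, while Axl, the most abundant, had 151.2 FPKM in KO and 179.2 FPKM in WT cells at 3 h, and 124.9 FPKM in KO and 196.9 FPKM in WT cells at 0 h.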

How the data were processed

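The deposited values are FPKM per RefSeq transcript with 95% limits and a status, per the file headers. Per the submitters' processing notes, the authors used TopHat2, Bowtie, SAMtools and Cufflinks with mm9. No version of these tools is named in the labels. The loci match GRCm38: 53 of 53 entries of the 34 genes lie in the GRCm38 gene of their name, so that build is used. Libraries were strand-specific and single-read, per the labels' protocols. Each library listed 33841 entries. Of these, 33437 got a symbol from RefSeq, 187 got one from GENCODE, and 217 kept their accession. FPKM was summed per symbol. Limits were summed likewise and shifted so that each interval, as wide in proportion, surrounds its FPKM. Differences used log2(FPKM + 1), without rescaling. Depth was estimated from transcripts over 2000 bases whose interval marks 1 read, and read estimates follow from it. They cover counting error only. The rule was also run on simulated counts that held counting error alone. They had no spread between cultures and no failed transcript estimates, so that run says nothing about either. With 1 library per group, no p-value was computed. Python 3.11.15, pandas 2.3.3, NumPy 2.4.6 and matplotlib 3.10.9 were used.

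The 34 genes, the lists and the size rule were chosen with earlier results of these data known. Genes that reach 1 FPKM were described in full, and up to 4 genes with the highest mean FPKM were to be named per further list. Others are named because they passed the size rule in a comparison. Csf1r, Cx3cr1, Pdgfra, Dpt, Amotl2, Gp9, Gp1bb, Cma1 and Mcpt4 met neither condition and were picked outside these rules. Alternatives were pseudocounts of 0.1 and 5, no floor on low values, no requirement on intervals, rescaling by the median ratio, the highest transcript entry alone and, added after seeing the data, leaving out genes listed at 0. A gene of the further lists is not reported here.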

Additional observations from a re-analysis of the deposited data

Results flagged for a closer look

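In 4 genes KO cells were lower and WT cells higher at 3 h than at 0 h of LPS, each with deposited intervals apart. With 1 library per group, this difference was not tested. In log2(FPKM + 1), Loxl2 differed between 3 h and 0 h by -0.32 in KO and 0.27 in WT cells, a difference of -0.59. Bgn differed by -0.72 in KO and 0.23 in WT cells, a difference of -0.95. Ctgf differed by -0.59 in KO and 0.36 in WT cells, a difference of -0.95. Igfbp7 differed by -0.80 in KO and 3.13 in WT cells, a difference of -3.93, which rests on the WT value listed at 0 at 0 h. After rescaling by the median ratio the KO values were 0.24 for Loxl2 and 0.04 for Ctgf, which turns their direction, and -0.09 for Bgn and -0.19 for Igfbp7. The differences between the responses were then -0.46 for Loxl2, -0.83 for Bgn, -0.84 for Ctgf and -3.55 for Igfbp7.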

How the results depend on the processing

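No paired analysis was possible because each group holds 1 library, and for the same reason no library could be left out. The 13 genes called higher in KO cells at 0 h became 8 with a pseudocount of 5, which lost Col3a1, Col4a1, Col4a2, Col5a2 and Igfbp4, and the 3 called at 3 h became 6 with a pseudocount of 0.1 (with Col4a1, Cyr61 and Mgp) and 6 after rescaling by the median ratio (with Cyr61, Mgp and Sparc). The 1 gene called higher after LPS in WT cells became 2 with a pseudocount of 0.1, 2 with the highest entry alone, 3 after rescaling (with Col4a2 and Tnc) and 0 without the genes listed at 0. The 1 called lower in KO cells, Igfbp4, became 4 with a pseudocount of 0.1 and 0 with one of 5 or after rescaling, and the 0 called lower in WT cells became 1, Mgp, with a pseudocount of 0.1. The 2 genes with a differing LPS response became 4 with a pseudocount of 0.1, and 1 with one of 5 or without the genes listed at 0. Rescaling took the median LPS difference to 0.13 in KO cells, against -0.49, and to 0.48 in WT cells, against 0.03, because it removes the general drop in FPKM. Of 136 differences of single genes, 59 moved by more than the half-width of their interval from the deposited limits with rescaling, 57 with a pseudocount of 5, 47 with one of 0.1, 12 with the highest entry alone, and 0 without the floor or the intervals. The spread between cultures is unknown, and Col14a1, Lum and Mgp are limited by depth.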

Other observations

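Genes whose products bind or cut collagen were read by the same size rule. Of 18 receptors of collagen and fibronectin, 5 were called higher and 1 lower at 3 h in KO cells, and 4 higher and 1 lower in WT cells, while 0 were called between genotypes at either time. Over all symbols compared, 7.85% were called higher and 28.0% lower at 3 h in KO cells, and 7.56% higher and 23.2% lower in WT cells. Between genotypes, 1.33% were called higher and 0.387% lower in KO cells at 0 h, and 0.734% and 0.724% at 3 h. The integrin chains Itga1, Itga4, Itga5 and Itgav, named after their values were seen, were called higher in both genotypes. Mrc1, the mannose receptor that takes up collagen, was called lower in both: it had 30.5 FPKM at 3 h and 124.7 FPKM at 0 h in KO cells, and 32.9 FPKM at 3 h and 129.7 FPKM at 0 h in WT cells. Itgb1, a beta chain that can pair with each of these, had 204.5 FPKM at 3 h and 142.1 FPKM at 0 h in KO cells, and 176.4 FPKM at 3 h and 130.9 FPKM at 0 h in WT cells, and was not called.

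Of 11 collagen-degrading proteases and their inhibitors, 3 were called higher and 2 lower at 3 h in KO cells, where 7.85% and 28.0% of all symbols were, and 2 higher and 2 lower in WT cells, where 7.56% and 23.2% were. Mmp14, a membrane-bound collagenase, had 284.7 FPKM at 3 h and 126.5 FPKM at 0 h in KO cells, and 252.1 FPKM at 3 h and 116.1 FPKM at 0 h in WT cells. It was called higher after LPS in both genotypes. Between genotypes, Timp1, a protease inhibitor, had 203.1 FPKM in KO and 94.0 FPKM in WT cells at 3 h, and 86.4 FPKM in KO and 53.6 FPKM in WT cells at 0 h. Mmp8, the neutrophil collagenase, had 102.8 FPKM in KO and 50.1 FPKM in WT cells at 3 h, and 150.2 FPKM in KO and 109.9 FPKM in WT cells at 0 h. Both were called higher in KO cells at 3 h, where 0.734% of the symbols compared were. Mmp9, a gelatinase, was the 1 gene of the list called at 0 h, where 1.33% were called higher.

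Vcan (versican, a large matrix proteoglycan), chosen after its values were seen, had 82.9 FPKM at 3 h and 3.78 FPKM at 0 h in KO cells, and 42.3 FPKM at 3 h and 2.90 FPKM at 0 h in WT cells. It was called higher after LPS in both genotypes, and not between genotypes.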
